A study of Mus musculus with 18 samples.

Results

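The cytosolic heat shock proteins examined here are 10 genes listed by symbol: Hspa1a, Hspa1b, Hspa8, Hsp90aa1, Hsp90ab1, Hsph1, Dnajb1, Hspb1, Hspb8 and Bag3. Probes were assigned to them through the array's systematic names, and 9 of the 10 were measured, by 12 of the 39429 probes on the array, among 32451 genes in all. No probe matched Hspa1b, which is therefore named only. All 12 probes lay well above background on all 9 mRNA arrays, and the 9 measured genes were among the 24820 tested.

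The livers came from male C57BL/6 mice of 6 weeks that had fasted for 12 h before dosing. A control group was dosed with saline, and the other groups with monocrotaline (MCT) by gavage at 270 mg/kg (MCT 270) or 330 mg/kg (MCT 330). Each group had 8 mice, and livers were collected at 48 h. Messenger RNA was hybridised to single-colour whole-genome arrays, 3 per group, which the labels number as different mice. Monocrotaline is a plant pyrrolizidine alkaloid whose reactive metabolite, made by hepatic cytochrome P450 enzymes, damages sinusoidal endothelium.

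Cytosolic heat shock proteins bind unfolded polypeptides and either hold them soluble, refold them or pass them to degradation. Hsp70 proteins work in cycles driven by J-domain partners and nucleotide exchange factors, Hsp90 proteins finish the folding of client proteins such as kinases and steroid receptors, and small heat shock proteins hold unfolded clients without ATP. When damaged proteins occupy the chaperones, the transcription factor HSF1 is released, assembles on heat shock elements in promoters and raises transcription of the inducible members, whereas Hspa8 and Hsp90ab1 are abundant without stress.

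Arrays of the same group were first set against the technical noise, taken as the spread over repeat spots of 1 probe within an array. Replicates 2 and 3 differed from each other by no more than that noise in every group (highest ratio over brightness classes 0.537 in control, 0.463 in MCT 270 and 0.567 in MCT 330), while replicate 1 of the control and MCT 270 groups stood apart with ratios of 3.02 to 3.26. MCT 330 replicate 1 lay close to the limit of 1, with ratios of 0.935 and 0.931 from a robust spread and 1.08 and 1.03 from the root mean square. The robust spread was adopted after both outcomes had been seen. Arrays under the limit were averaged, so the control and MCT 270 groups each hold 2 samples and the MCT 330 group 1, and each count of heat shock genes that changes when MCT 330 replicate 1 stands as a sample of its own is given both ways. The labels number the replicates as different mice. All p-values reflect the spread among 5 samples only, with MCT 330, a lone sample, assumed to be as variable as the others. Without replicate 1 of control or of MCT 270, that group also holds 1 sample, and fewer samples set this spread. A call can then be lost with an unchanged log2 fold change. Of the 4 scans, 2 held arrays of both MCT 270 and control, and the 2 with MCT 330 arrays held no other group, so MCT 330 and scan cannot be told apart. Between 63% and 80.3% of probes per array were well above background, no spot was saturated, and precision is limited by the few arrays.

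The promoters of the inducible members are shown first because heat shock elements are built from inverted GAA repeats that can be read in the letters. RefSeq promoters (GRCm38.p6, 250 bases before the annotated start site and 50 from it on) were given for 7 of the 10 genes, and none for Hspa8, Hsp90aa1 or Hsp90ab1. They were searched for the cores GAANNTTC and TTCNNGAA, each of which is its own reverse complement, so a match stands on both strands. A core was found in 6 of the 7 genes, and 17% of 27025 gene symbols hold either core in a window of the same length. The stretches around the cores are listed 5′ to 3′ on the gene's strand, with the core in capitals.
Hspa1a, chr17:34972245-34972268, minus strand: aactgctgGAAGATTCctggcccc
Hspb1, upstream core, chr5:135887794-135887817, plus strand: caacaagaGAAGTTTCcagatggg
Hspb1, downstream core, chr5:135887814-135887837, plus strand: tgggggcaGAACCTTCctggcccc
Hspb8, chr5:116422847-116422870, minus strand: agccaggaGAAGTTTCtaggctcg
Bag3, chr7:128523617-128523632, plus strand: tgggaccaGAAGTTTC
Hsph1, upstream core, chr5:149636354-149636377, minus strand: tagaatctTTCTCGAAggctcgag
Hsph1, downstream cores, chr5:149636287-149636308, minus strand: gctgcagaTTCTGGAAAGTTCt

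Hspb1, Hspb8 and Bag3 hold the same 8 letters, GAAGTTTC, at different distances from the start site. In Hspb1 that core begins at base -117 from the start site, and a further core begins at base -97. In Hspb8 it begins at base 3 from the start on, and in Bag3 at base 43. Hsph1 has a TTCNNGAA core beginning at base -33 and, from base 37 to 49, a TTCNNGAA and a GAANNTTC core that overlap; windows with both cores occur in 1.51% of gene symbols. The Hspa1a core begins at base -104, and the stretch around it has the same letters in Hspa1b, whose 300-base window is 98.7% identical to that of Hspa1a. Neither of the Dnajb1 windows held a core, and none of the 7 genes held TATAAA, which 15.7% of gene symbols hold. The 250 bases upstream of Hspb1, the gene with the largest log2 fold change in value at MCT 330, and of Hspa1a, the classical inducible Hsp70 gene, show where the cores lie.
Hspb1, chr5:135887669-135887918, plus strand: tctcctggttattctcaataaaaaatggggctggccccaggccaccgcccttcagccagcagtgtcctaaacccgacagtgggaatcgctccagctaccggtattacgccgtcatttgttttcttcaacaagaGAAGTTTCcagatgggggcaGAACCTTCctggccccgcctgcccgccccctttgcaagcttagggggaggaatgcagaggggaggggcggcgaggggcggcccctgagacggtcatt
Hspa1a, chr17:34972157-34972406, minus strand: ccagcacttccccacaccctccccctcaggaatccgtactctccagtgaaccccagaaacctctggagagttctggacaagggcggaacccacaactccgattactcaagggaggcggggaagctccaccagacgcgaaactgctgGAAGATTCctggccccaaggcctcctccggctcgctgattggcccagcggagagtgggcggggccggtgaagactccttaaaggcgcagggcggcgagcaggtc

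**Figure D1:**
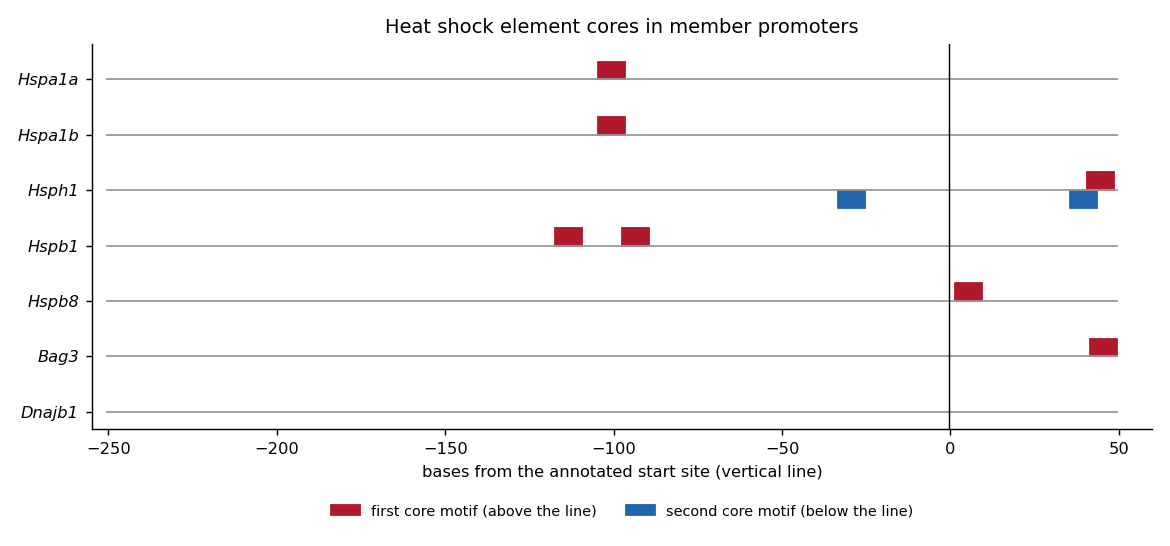
Positions of the 2 heat shock element cores along the promoter windows of 7 genes, in bases from the annotated start site (horizontal axis), with GAANNTTC drawn above each line and TTCNNGAA below it. Cores lie before the start in Hspa1a, Hspa1b and Hspb1, after it in Hspb8 and Bag3, on both sides in Hsph1, and nowhere in the window of Dnajb1.

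In livers of the MCT 330 group, 3 of the 9 measured genes rose against control: the small heat shock protein Hspb8, the inducible Hsp90 gene Hsp90aa1 and the cochaperone Bag3, by 2.59, 2.82 and 2.07-fold. Of all genes tested, 33.2% passed in either direction and 9.47% were higher. The share of the 9 that passed lay near the share of all genes in either direction, although all 3 were higher. The other 6 did not pass the test, although every MCT 330 array lay above every control array for Hspa1a, Hsph1 and Hspb1 too, as for 28.9% of all genes. The constitutive genes Hspa8 and Hsp90ab1 and the J-domain gene Dnajb1 had log2 fold changes between -0.10 and 0.06. At MCT 270 none of the 9 passed the test. Values below are scaled intensities, that is, background-subtracted spot signals scaled to a common 75th percentile, and a probe's values are compared between arrays only, never with those of another probe. Unless another probe is named, they are those of the gene's brightest probe.

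**Figure D2:**
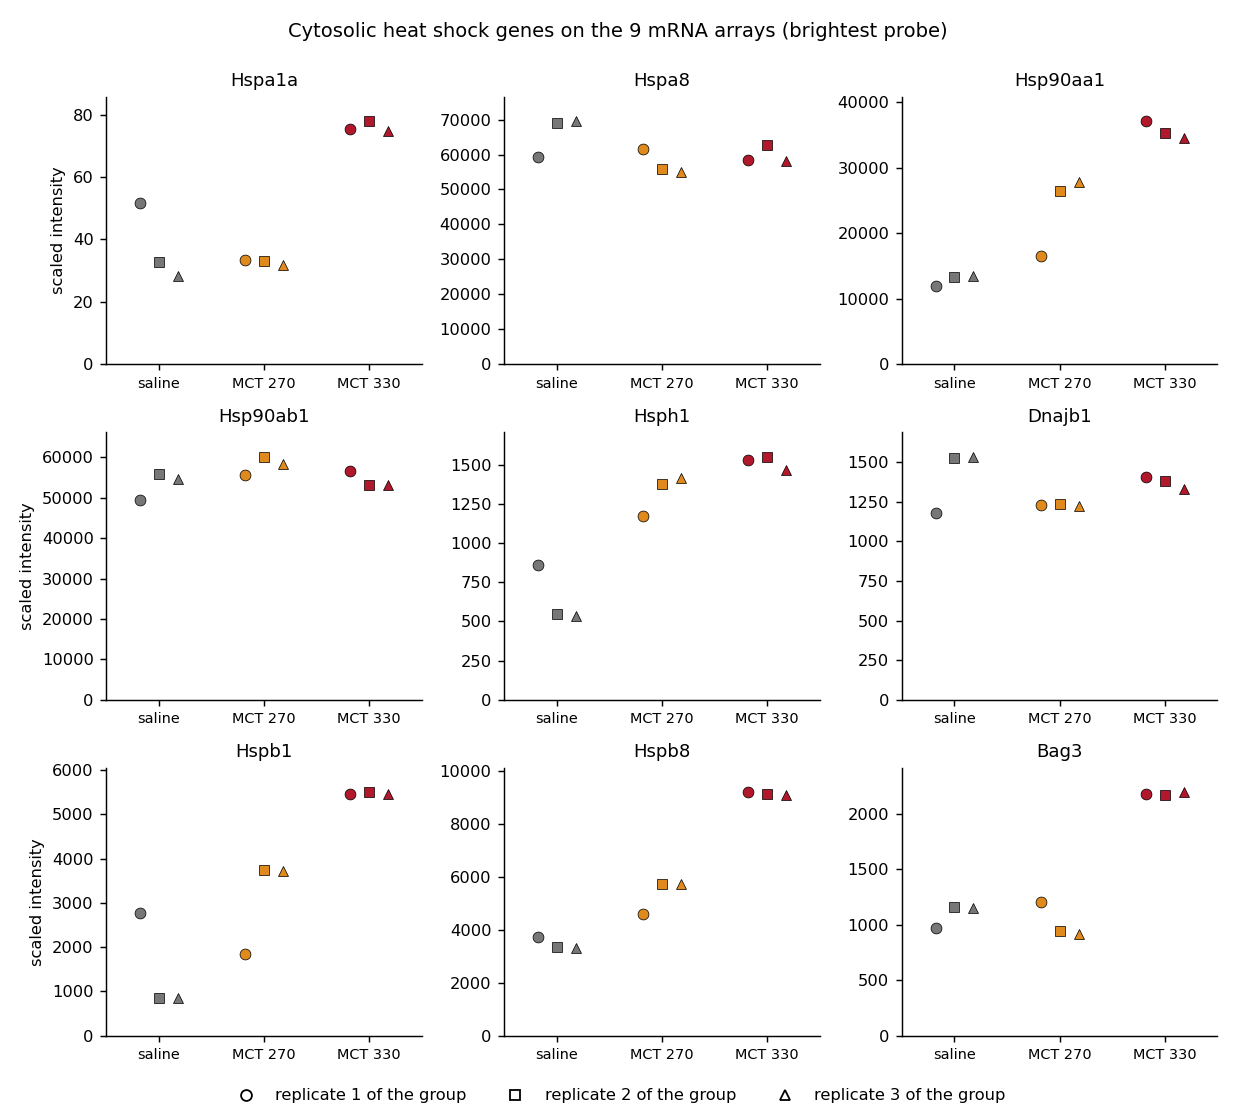
Scaled intensity (vertical axes, linear and starting at 0) of the brightest probe of the 9 measured genes on each array of the saline control, MCT 270 and MCT 330 groups, with 1 symbol per replicate. The MCT 330 arrays lie above all other arrays for Hspa1a, Hsp90aa1, Hsph1, Hspb1, Hspb8 and Bag3, within the range of the control arrays for Dnajb1, and overlap with control for Hspa8 and Hsp90ab1.

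Hspb8, a small heat shock protein that works with Bag3 in delivering misfolded proteins to autophagy, had scaled intensities of 3724, 3370 and 3320 on the control arrays, 4597, 5757 and 5741 on the MCT 270 arrays and 9200, 9151 and 9094 on the MCT 330 arrays. The 3 groups did not overlap and stood in the order of dose. The log2 fold change at MCT 330 against control was 1.37 ± 0.23 (SE, n = 1 and 2 samples; limma, Benjamini-Hochberg adjusted p = 0.0168). At MCT 270 it was 0.54 ± 0.19 (n = 2 and 2; limma adjusted p = 0.241), which did not pass, and MCT 330 against MCT 270 gave 0.83 ± 0.23 (limma adjusted p = 0.0654). With MCT 330 replicate 1 as a sample of its own, the last of these comparisons passed (limma adjusted p = 0.00988).

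Bag3, which couples Hsp70 to small heat shock proteins and acts as a nucleotide exchange factor, had scaled intensities of 966, 1155 and 1146 in control, 1208, 942 and 915 at MCT 270 and 2180, 2165 and 2190 at MCT 330. Control and MCT 270 arrays overlapped, and the MCT 330 arrays lay above all of them. The log2 fold change was 1.05 ± 0.26 at MCT 330 against control (SE, n = 1 and 2; limma adjusted p = 0.0386) and 0.01 ± 0.21 at MCT 270 against control (95% confidence interval -0.55 to 0.56). Between the doses, MCT 330 against MCT 270 gave 1.04 ± 0.26 (limma adjusted p = 0.0512; 0.00794 with MCT 330 replicate 1 as a sample of its own). The call at MCT 330 was lost without control replicate 1 and without MCT 270 replicate 1, where the log2 fold changes were 0.92 and 1.05. MCT 270 replicate 1 is in neither group of this comparison, so leaving it out changed the shared spread and not the log2 fold change.

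Hspb1, the small heat shock protein known as Hsp27 in humans, varied most within groups. Its scaled intensities were 2779, 862 and 854 in control, 1833, 3748 and 3716 at MCT 270 and 5452, 5491 and 5458 at MCT 330. Control replicate 1 thus lay above MCT 270 replicate 1 and 3.24-fold above the other control sample, and all MCT 330 arrays lay above the arrays of both other groups. The log2 fold change at MCT 330 against control was 1.82 ± 0.81 (SE, n = 1 and 2; limma adjusted p = 0.147), with a 95% confidence interval of -0.30 to 3.95. Without control replicate 1 it was 2.67 and passed (limma adjusted p = 0.042). At MCT 270 it was 0.76 ± 0.66 (limma adjusted p = 0.578).

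Hsp90aa1, the stress-inducible cytosolic Hsp90, had scaled intensities of 11980, 13260 and 13460 in control, 16490, 26510 and 27840 at MCT 270 and 37180, 35320 and 34600 at MCT 330. The groups did not overlap, and MCT 270 replicate 1 lay nearer to control than the other MCT 270 arrays did. The log2 fold change was 1.50 ± 0.35 at MCT 330 against control (SE, n = 1 and 2; limma adjusted p = 0.0335), a call that was lost without control replicate 1 (limma adjusted p = 0.0785). MCT 270 against control gave 0.74 ± 0.28 (limma adjusted p = 0.269), and MCT 330 against MCT 270 gave 0.75 ± 0.35 (limma adjusted p = 0.185). Hsp90ab1, the constitutive partner gene, had 49350, 55960 and 54550 in control, 55640, 60200 and 58500 at MCT 270 and 56540, 53130 and 53170 at MCT 330. Its groups overlapped, and its log2 fold change was 0.06 ± 0.20 at MCT 330 against control (95% confidence interval -0.46 to 0.57). At MCT 270 it was 0.14 ± 0.16 (-0.29 to 0.56). Quantile normalization gave 0.43 and 0.37 for these comparisons, and normexp background correction with quantile normalization gave 0.48 and 0.42, none passing.

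Hspa1a, the classical stress-inducible Hsp70, had low signals of 51.8, 32.9 and 28.2 in control, 33.5, 32.9 and 31.8 at MCT 270 and 75.3, 78.0 and 74.6 at MCT 330. Control and MCT 270 arrays overlapped, and the MCT 330 arrays were the highest. The log2 fold change was 0.94 ± 0.36 at MCT 330 against control (SE, n = 1 and 2; limma adjusted p = 0.106) and 1.21 ± 0.36 against MCT 270 (limma adjusted p = 0.0742). Neither passed. With MCT 330 replicate 1 as a sample of its own, both comparisons passed. The log2 fold changes were then 0.93 against control and 1.20 against MCT 270 (limma adjusted p = 0.0302 and 0.0169). Both were also called with quantile normalization (1.28 and 1.60), with normexp (0.62 and 0.74) and without control replicate 1 (1.32 and 1.21). With probes well above background on all 9 arrays, only MCT 330 against MCT 270 was called. Neither was called without a filter on dim probes or without MCT 270 replicate 1. Whether this probe also binds transcripts of the near-identical Hspa1b was not tested.

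Hspa8, the constitutive Hsp70, was measured by 3 probes that did not behave alike. The brightest had 59300, 69140 and 69670 in control, 61590, 55980 and 55030 at MCT 270 and 58370, 62690 and 58220 at MCT 330. On this probe the groups overlapped, with log2 fold changes of -0.10 ± 0.21 at MCT 330 against control (95% confidence interval -0.66 to 0.45) and -0.13 ± 0.17 at MCT 270. The middle probe gave 0.07 ± 0.19 and -0.04 ± 0.16 for the same comparisons, and its lowest MCT 330 array (18200) lay just above its highest control array (18170). On the dimmest probe the scaled intensities were 4512, 3162 and 3285 in control, 5659, 5902 and 5788 at MCT 270 and 5948, 6025 and 5796 at MCT 330, so every treated array lay above every control array. Its log2 fold changes were 0.64 ± 0.27 at MCT 330 (limma adjusted p = 0.132 over 29949 probes) and 0.59 ± 0.22 at MCT 270 (limma adjusted p = 0.239). The probes thus differed in pattern, and which transcripts each one binds was not tested.

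Hsph1, an Hsp110 protein that serves Hsp70 as nucleotide exchange factor, had scaled intensities of 863, 548 and 536 in control, 1171, 1379 and 1416 at MCT 270 and 1529, 1551 and 1466 at MCT 330. The 3 groups did not overlap, and control replicate 1 was again the highest control. Its log2 fold change was 1.15 ± 0.34 at MCT 330 against control (SE, n = 1 and 2; limma adjusted p = 0.0595) and 0.90 ± 0.28 at MCT 270 against control (limma adjusted p = 0.205). A dimmer probe had 370, 206 and 204 in control, 534, 642 and 631 at MCT 270 and 671, 659 and 669 at MCT 330, and gave 1.27 ± 0.40 at MCT 330 and 1.08 ± 0.33 at MCT 270. Both probes had the same order of groups. The call at MCT 330 was made without control replicate 1 (limma adjusted p = 0.0271) and with MCT 330 replicate 1 as a sample of its own (0.0131).

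**Figure D3:**
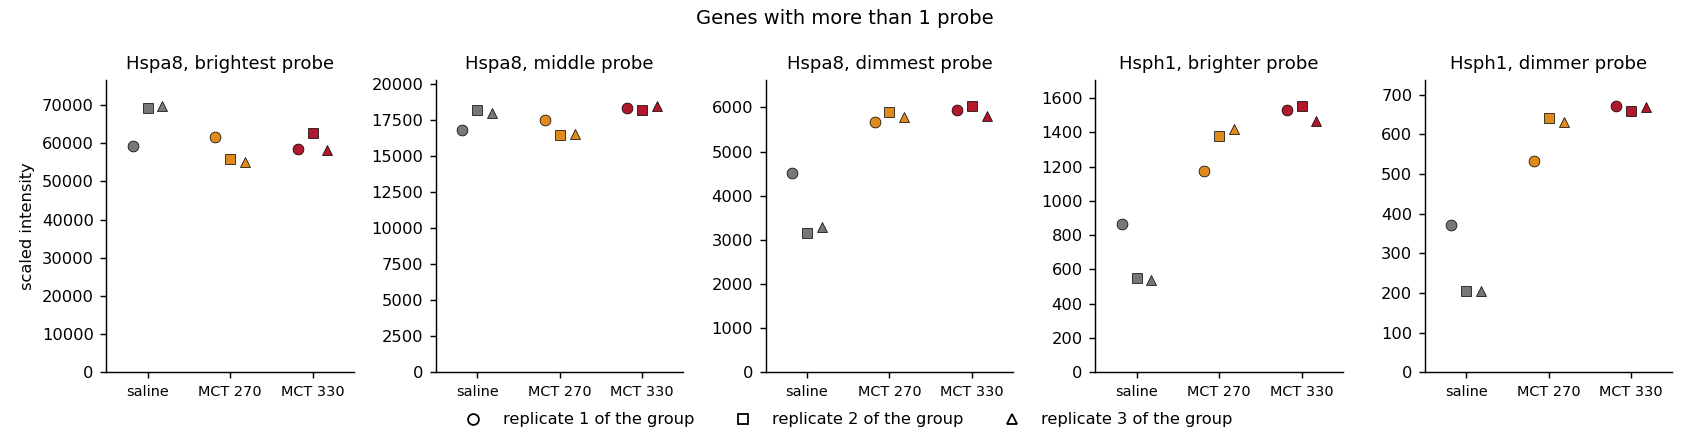
Scaled intensity (vertical axes, linear from 0) of the 3 Hspa8 probes and the 2 Hsph1 probes on each array, by group. The dimmest Hspa8 probe and both Hsph1 probes lie higher on every treated array than on any control array, while the brightest Hspa8 probe overlaps between control and MCT 330.

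Dnajb1, the J-domain protein that stimulates the ATPase of Hsp70, had scaled intensities of 1181, 1526 and 1535 in control, 1229, 1238 and 1224 at MCT 270 and 1406, 1383 and 1331 at MCT 330. Both treated groups lay inside the range of the control arrays. The log2 fold change was 0.03 ± 0.24 at MCT 330 against control (95% confidence interval -0.59 to 0.65) and -0.13 ± 0.19 at MCT 270 (-0.63 to 0.38). On the brightest probes at MCT 330, the intervals left room for upward log2 changes of up to 0.57 (Hsp90ab1), 0.45 (Hspa8) and 0.65 (Dnajb1). The dimmest Hspa8 probe, at 0.64 ± 0.27, lay above that limit, so it does not hold for every probe of the gene.

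**Figure D4:**
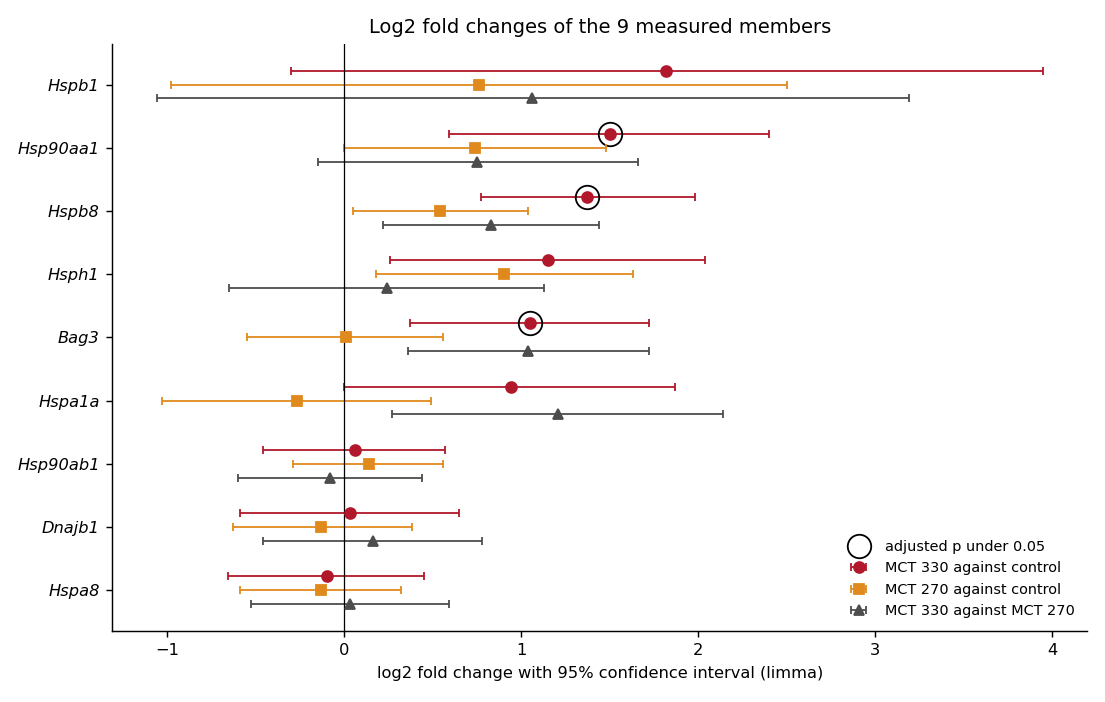
Log2 fold changes (horizontal axis) of the 9 measured genes with 95% confidence intervals from limma, for MCT 330 against control, MCT 270 against control and MCT 330 against MCT 270, with a ring where the adjusted p was under 0.05. Rings stand at Hsp90aa1, Hspb8 and Bag3 for MCT 330 against control only, and the interval of Hspb1 is the widest.

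Set against all genes, the 9 measured genes had a median log2 fold change of 1.05 at MCT 330 against control, while the median of the 24820 genes tested was -0.25. Of the 9, 3 passed the test and all of these were higher, against 9.47% of all genes higher and 23.7% lower. An unadjusted p under 0.05 was reached by 5 of the 9 and by 47.1% of all genes. All MCT 330 arrays lay above all control arrays for 6 of the 9, against 28.9% of all genes. With MCT 330 replicate 1 as a sample of its own, 5 of the 9 passed, all higher, against 55.4% of all genes in either direction and 18.4% higher. Without a filter on dim probes Hspb8 alone passed, against 11.5% of all genes, with limma adjusted p of 0.0785 for Hsp90aa1 and 0.0881 for Bag3. At MCT 270 against control, limma with Benjamini-Hochberg adjustment called 0 of the 9 and 0% of all genes, 3 of the 9 and 18.6% of all genes had an unadjusted p under 0.05, and the medians were 0.14 and -0.02. All MCT 270 arrays lay above all control arrays for Hsp90aa1, Hsph1 and Hspb8, and for 23.1% of all genes. Within the scan that held 2 arrays of each of these groups, MCT 270 minus control was 0.73 for Hsp90aa1, 0.89 for Hsph1 and 0.54 for Hspb8 on the log2 scale. Within the scan that held 1 array of each, the differences were 1.05, 1.40 and 0.79 for the same genes. These genes were named because their arrays did not overlap, so differences above 0 within a scan follow from that choice. The second scan held replicate 3 of each group, averaged here with replicate 2, so it adds no separate sample. In the first and second scan Hspb1 had 0.76 and 2.12, Hsp90ab1 0.14 and 0.10 and Bag3 0.01 and -0.33. For Hspa1a the values were -0.31 and 0.17, for Hspa8 -0.12 and -0.34, and for Dnajb1 -0.12 and -0.33. MCT 330 against MCT 270 gave 0 of 9 and 21.8% of all genes, with 3 of 9 and 38.9% at an unadjusted p under 0.05, medians of 0.75 and -0.23, and every MCT 330 array above every MCT 270 array for 7 of the 9 and 27.2% of all genes. With MCT 330 replicate 1 as a sample of its own, 3 of the 9 passed between the doses, all higher, against 45.2% of all genes in either direction and 12.8% higher. Comparisons with control share the same control samples.

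Relative to the averaged control replicates 2 and 3, 5 of the 9 genes lay more than 1 log2 unit higher in the MCT 330 sample, where 9.81% of all genes did. These reference arrays had the lowest shares of probes well above background, 65.6% and 63%, against 74.3% for control replicate 1. The numbers of genes more than 1 log2 unit higher were 2 in MCT 270 replicate 1, 3 in the other MCT 270 sample (5.22% of all genes in each) and 1 in control replicate 1 (3.56%). The gene in control replicate 1 was Hspb1, at 1.70, and Hspa1a and Hsph1 followed at 0.77 and 0.67, while the other 6 lay between -0.37 and 0.15. The controls therefore differed from each other in these 3 genes by more than in the rest of the set.

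The counts in the lists of other chaperone genes stand against the 9.47% of all genes that were higher and the 23.7% that were lower at MCT 330 against control. No heat shock transcription factor passed the test upward. Of 5 heat shock factors and regulators tested at MCT 330 against control, 0 were higher and 1 was lower, with a median log2 fold change of -0.17. The gene that fell was Hsf2bp, which encodes a binding partner of the factor HSF2, with scaled intensities of 26.1, 26.7 and 24.3 at MCT 330 against 58.7, 54.1 and 53.3 in control (log2 fold change -1.13 ± 0.19, limma adjusted p = 0.0168). The call was lost with normexp background correction and quantile normalization, where the log2 fold change was -0.27 (limma adjusted p = 0.0994), without a filter on dim probes (0.0507) and without MCT 270 replicate 1 (0.0511). Hsf2 itself had -0.64 ± 0.23 (limma adjusted p = 0.0964). Hsf1, added here after its values were seen because HSF1 is the main regulator of these genes, had a log2 fold change of -0.17 ± 0.19 at MCT 330 and -0.46 ± 0.16 at MCT 270 (limma adjusted p = 0.529 and 0.237).

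Among 6 other cytosolic Hsp70 and Hsp110 genes, 1 rose and 2 fell at MCT 330 against control (median 0.33). Hspa4l, an Hsp110 family member, rose to 1862, 1896 and 1819 at MCT 330, against 827, 782 and 796 in control (log2 fold change 1.20 ± 0.23, limma adjusted p = 0.0219). Hspa1l, an Hsp70 known from testis, and Hspa12b, an Hsp70-related gene of endothelium, fell by 1.20 and 1.03 on the log2 scale (limma adjusted p = 0.0299 and 0.0203). Both falls were lost with quantile normalization (log2 fold changes -0.79 and -0.60, limma adjusted p = 0.0598 and 0.0572), with normexp (-0.42 and -0.29, 0.0617 and 0.0872), without a filter on dim probes (0.0733 and 0.0572) and without MCT 270 replicate 1 (0.0622 and 0.059). Of these 6 genes, 1 was higher with quantile normalization, 3 with normexp and 0 without the filter, where Hspa4l had a limma adjusted p of 0.0594. Of 9 other J-domain genes, 2 rose and 0 fell (median 0.27): Dnajc2, a ribosome-associated J-domain protein, at 1.18 ± 0.18 and Dnajb4, a close relative of Dnajb1, at 0.79 ± 0.20 (limma adjusted p = 0.0149 and 0.0399). Dnajb4 did not pass without a filter on dim probes (limma adjusted p = 0.0924), without MCT 270 replicate 1 (0.105) or without control replicate 1 (0.068). Of 8 nucleotide exchange factors and regulators of Hsp70, 1 rose and 0 fell (median 0.22). This was Bag2, an inhibitor of the Hsp70-associated ubiquitin ligase CHIP, with 375, 362 and 370 at MCT 330 against 159, 176 and 162 in control (1.17 ± 0.20, limma adjusted p = 0.0164), while Bag4 had -0.71 ± 0.25 (0.0862). None of 17 Hsp90 cochaperones passed limma's test in either direction (median 0.11), but 1 was higher with quantile normalization, 1 with probes well above background on all arrays, 4 with normexp and 4 with MCT 330 replicate 1 as a sample of its own. Unc45a, a myosin chaperone, had 0.74 ± 0.21 (limma adjusted p = 0.051) and Stip1, which links Hsp70 to Hsp90, 0.83 ± 0.30 (0.0907). Of 7 other small heat shock proteins, 0 rose and 1 fell (median -0.27). That was Cryaa, the alpha-A crystallin of the eye lens, with 131, 112 and 114 at MCT 330 against 4308, 847 and 828 in control (-4.00 ± 0.96, limma adjusted p = 0.0362). Without control replicate 1 its log2 fold change was -2.82 (limma adjusted p = 0.0222), and with the median over its probes -2.87 (0.0171). The call was lost with quantile normalization (0.0548), with normexp (0.0577), without a filter on dim probes (0.0818) and without MCT 270 replicate 1 (0.0527). Hspb9 had -0.94 ± 0.27 (0.057).

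Subunits of the cytosolic chaperonin TRiC, the ring complex that folds actin and tubulin, were all higher in value at MCT 330 than in control, and 4 of 8 passed the test (median 0.81), against 9.47% of all genes higher. The largest were Cct4 at 1.02 ± 0.22, Cct6a at 0.99 ± 0.19 and Cct3 at 0.95 ± 0.20 (limma adjusted p = 0.0285, 0.0229 and 0.0272), and Tcp1, named to complete the 4, had 0.86 ± 0.20 (0.0327). All 8 were also above 0 at MCT 270 against control, with a median of 0.62, and 0 passed limma's test there. The TRiC calls at MCT 330 numbered 2 without control replicate 1, 0 without MCT 270 replicate 1, 0 without a filter on dim probes, 8 with either quantile or normexp processing and 8 with MCT 330 replicate 1 as a sample of its own. Among 9 partners in disaggregation and aggresome formation, 4 rose and 0 fell at MCT 330 (median 0.79), also against 9.47% higher over all genes. Zfand2a, an arsenite- and heat-inducible regulator of the proteasome, had scaled intensities of 3256, 3249 and 3244 at MCT 330 against 675, 646 and 676 in control, and of 660, 738 and 731 at MCT 270. Its log2 fold change was 2.28 ± 0.19 at MCT 330 (limma adjusted p = 0.0091) and 0.06 ± 0.16 at MCT 270. Sqstm1, the autophagy receptor p62, rose by 1.44 ± 0.29 and Ubqln2, a proteasome shuttle factor, by 1.42 ± 0.19 on the log2 scale (limma adjusted p = 0.0245 and 0.0118), and Ubqln4, named to complete the 4, by 0.80 ± 0.19 (0.0373). Without control replicate 1, and likewise without a filter on dim probes, 2 of these 9 passed, and neither Sqstm1 (limma adjusted p = 0.0556 and 0.0632) nor Ubqln4 (0.0627 and 0.0881) was among them.

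**Figure D5:**
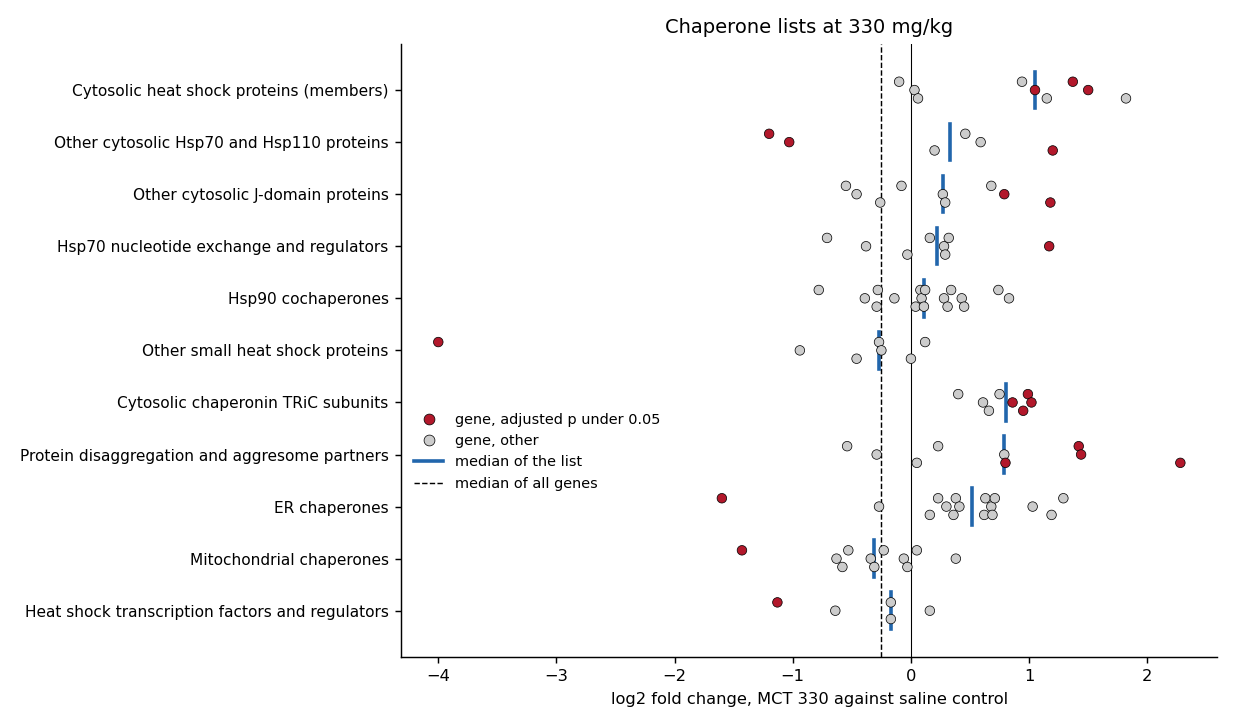
Log2 fold change at MCT 330 against control (horizontal axis) of each tested gene in the 9 heat shock genes and in 10 other chaperone lists, with filled red circles for an adjusted p under 0.05, a blue bar at each list's median and a dashed line at the median of all genes, -0.25. The medians of the heat shock genes, 1.05, of TRiC, 0.81, and of the disaggregation partners, 0.79, lie furthest to the right.

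Over the 5 samples, the genes with values closest to the median profile of the 9 heat shock genes, both as log2 differences from the control mean, were Fen1, a flap endonuclease of DNA replication, Cttn, the actin-binding protein cortactin, Mospd1, Tlr1, a receptor of innate immunity, and Sike1. Their root mean square differences from that profile were 0.0404, 0.0462, 0.0464, 0.0489 and 0.0512 log2 units. That median profile was 1.05 in the MCT 330 sample, 0.20 and 0.18 in the MCT 270 samples and -0.08 and 0.08 in the controls. Among the heat shock genes themselves Bag3 lay nearest to it, at 0.167, and Hspb1 furthest, at 0.838.

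Markers of several cell types moved with the same samples. Their counts stand against 9.47% of all genes higher and 23.7% lower at MCT 330 against control. Counting genes that passed limma's test at MCT 330 against control, 5 of 9 neutrophil markers were higher and 0 lower, and their summed scaled intensity was 25000 to 25800 at MCT 330 against 5520 to 7390 in control. Markers of monocytes and recruited macrophages were higher in 7 of 9 and lower in 0, although their sum was 35300 to 36500 against 40800 to 51500 in control. Sinusoidal endothelial markers were lower in 9 of 10 (sum 5760 to 5910 against 23500 to 24300), Kupffer cell markers in 5 of 8 (6860 to 6910 against 15800 to 18800) and stellate cell markers in 4 of 8, with 1 higher (8460 to 9420 against 19500 to 22000). The 12 hepatocyte markers were all tested, with 1 higher and 4 lower and a sum of 1000000 to 1100000 against 1530000 to 1770000. Lymphocyte markers numbered 2 higher and 2 lower of 10 (sum 4510 to 4880 against 13300 to 16300), cholangiocyte markers 1 higher of 5 (2680 to 2740 against 850 to 1650) and erythroid markers 0 of 3 in either direction (85000 to 92600 against 8880 to 24900). Cftr and Epb42 were too dim to be tested, and Ly6g, Ly6c2 and Hbb-b1 had no matched probe. At MCT 270 against control the sums were 5270 to 5840 for neutrophils and 8630 to 10400 for sinusoidal endothelium, against the control ranges given above. In whole liver, fewer cells of a type and less RNA per cell cannot be told apart, and the part of these cell types in the heat shock values was not tested.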

How the data were processed

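Liver mRNA was read on 9 single-colour arrays, 3 per group; the miRNA arrays hold no probe of these genes and were not used. Spot intensities were deposited as the authors' scanner output, processed with Agilent Feature Extraction (11.0.1.1) including background subtraction, per the file headers. Computed here were log2 processed signals centred on the 75th percentile of their array (498.2 to 703), the mean over spots of a probe, and the brightest probe of each gene, without 1377 control spots. A probe was kept if every array of some group had it well above background, which left 24820 genes. Of 33258 systematic names, 21464 matched a RefSeq symbol, used for names only.

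Arrays of a group no further apart than repeated spots were averaged, and limma 3.58.1 in R 4.3.3 was fitted to all 3 groups (lmFit, eBayes) with a Benjamini-Hochberg adjusted p under 0.05 over all genes as the threshold. Without a stated test in the labels, this test was chosen here. It was run on simulated data, with larger changes than the heat shock genes had in the fit above. The spread given to MCT 330 was drawn from the other groups. With 1 MCT 330 sample that spread cannot be checked, so the simulation does not bear on it. The replicate numbers are not stated to pair mice, and the deviations of replicate 1 of MCT 270 and of control correlated at 0.0152 over 24801 genes. Named genes are all 10 members, up to 3 genes per other list that passed at MCT 330 with the largest change (below 2, the smallest p values), and the 5 most alike genes. The members and lists were chosen with earlier results of these data known. Some marker gene results are not reported here.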

Additional observations from a re-analysis of the deposited data

How the results depend on the processing

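All heat shock genes that passed under the settings below were higher, while percentages of all genes are in either direction unless marked. With the 9 arrays as separate samples, 3 of 9 heat shock genes passed limma's test for MCT 270 against control. Of all genes 38.5% passed (18.8% higher). For MCT 330 against control 6 passed, against 72.9% (25.7% higher). For MCT 330 against MCT 270 4 passed, against 65% (20.6% higher). With averaged arrays the counts were 0, 3 and 0. The arrays averaged there are not distinguishable from repeats, so the counts from 9 arrays rest on more samples than the arrays hold. With the replicate number as a block the counts were again 3, 6 and 4, against 37.6%, 72.3% and 64.4% of all genes (18%, 25.4% and 20.3% higher). Scan as a random block (consensus correlation -0.196) also gave 3, 6 and 4, against 35.8%, 75.8% and 68.5% (17.4%, 26.8% and 22.2% higher). Quantile normalization gave 1 between the doses, against 15.6% of all genes. Normexp with quantile normalization gave 5 for MCT 330 against control and 3 between the doses, against 30.6% and 16.1%. These scalings moved the median of all genes at MCT 330 against control to -0.05 and -0.02. In that comparison Hspa8 had 0.29 and 0.36, Hsp90ab1 0.43 and 0.48 and Dnajb1 0.06 and -0.02, none passing. Without a filter on dim probes 1 gene passed for MCT 330 against control, against 11.5% of the 32451 genes tested. With probes well above background on all 9 arrays, 3 passed between the doses, against 29.5% of all genes. Leaving out each array in turn gave 0 to 0 at MCT 270, 2 to 4 at MCT 330 and 0 to 2 between the doses. An alternative added after seeing the data was MCT 330 replicate 1 as a sample of its own. It gave 5 for MCT 330 against control and 3 between the doses, against 55.4% and 45.2% of all genes (18.4% and 12.8% higher). No heat shock gene that passed changed direction under these settings. Over all genes, MCT 270 against control gave 0 calls with averaged arrays, 9552 with 9 arrays, 9321 with the replicate block, 8890 with scan as a block, 503 with normexp, 408 with the stricter filter and 1726 with MCT 330 replicate 1 as a sample of its own. MCT 330 against control gave 8243 calls, 18087 with 9 arrays, 3748 without a filter and 4896 without MCT 270 replicate 1. The split at MCT 330 against control was 2350 higher and 5893 lower, 3087 and 4256 after quantile normalization, and 3703 and 3904 with normexp. Hspa1a, whose signal is low, ranged in log2 fold change at MCT 330 against control from 0.62 with normexp to 1.32 without control replicate 1. The cause of these changes was not tested.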

Other observations

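Further lists cover the chaperones of other compartments, and their counts stand against 9.47% of all genes higher and 23.7% lower at MCT 330. Among 16 chaperones of the endoplasmic reticulum, 0 rose and 1 fell at MCT 330 against control, with a median log2 fold change of 0.52 there and 0.63 at MCT 270. The gene that fell was Sil1, the nucleotide exchange factor of the reticulum's Hsp70, with scaled intensities of 2095, 2025 and 2156 at MCT 330 against 5809, 6981 and 6900 in control (-1.60 ± 0.21, limma adjusted p = 0.0114). Calr, the lectin chaperone calreticulin, had 17770, 17730 and 17420 at MCT 330 against 9664, 7835 and 7706 in control, and 1.03 ± 0.34 did not pass (limma adjusted p = 0.0787). Of the 16 genes, 14 had log2 fold changes above 0 at MCT 330 against control. With MCT 330 replicate 1 as a sample of its own, 4 were higher and 1 lower, against 18.4% and 37% of all genes. Calr then passed (limma adjusted p = 0.0192). Of 11 mitochondrial chaperones, 0 rose and 1 fell, with a median of -0.31. Clpb, a mitochondrial disaggregase, had 1829, 1800 and 1732 at MCT 330 and 2618, 2629 and 2617 at MCT 270, against 4419, 5300 and 5251 in control (-1.43 ± 0.21 at MCT 330, limma adjusted p = 0.0132). Trap1, the mitochondrial Hsp90, had -0.58 ± 0.18 (limma adjusted p = 0.0701).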
